A study of Homo sapiens with 15 samples.

Results

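The MAPEG enzymes (membrane-associated proteins in eicosanoid and glutathione metabolism) were examined in A549 cells, an established human lung adenocarcinoma line, in which a miRNA was overexpressed or knocked down. The family was taken as the probes whose gene name is MGST1, MGST2, MGST3, PTGES, ALOX5AP or LTC4S, which gave 7 probes of 6 genes out of 41000 probes of 30484 gene names. ALOX5AP has a pair of probes and the other genes have 1 each. The members were chosen because MGST3 stood out on the miR-629* arrays, so the MGST3 values with miR-629* are given as a description, without a test. All 7 probes passed the filter on dim probes, which asked for a signal well above background on at least 3 arrays, in Cy5 or Cy3.

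The data are 15 dual-color arrays, 3 per miRNA, for miR-629* and miR-565 and also for miR-181d, miR-766 and miR-574-3p. On each array, cells transfected with the synthetic miRNA (overexpressing, labeled with Cy5) were compared with cells transfected with an LNA-modified antisense oligonucleotide against the same miRNA (antagomir, labeled with Cy3). Oligonucleotides were used at 20 nM and RNA was taken at 24 h according to the labels, and no cells without oligonucleotide are among these arrays. The labels do not say whether replicates are separate transfections, so that p-values measure only the spread between these arrays. The arrays lay on 4 slides. Slide 3 held all miR-629* arrays and 1 of miR-574-3p, slide 2 held 2 each of miR-565 and miR-574-3p, slide 1 held the first miR-565 array with those of miR-181d, and slide 4 held miR-766 alone. Dyes were not swapped. Dye and treatment therefore cannot be told apart within a miRNA. Comparing one miRNA with another removes any dye effect that the arrays share.

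Between 68.1% and 75.5% of probes per array were well above background in Cy5, and 68.8% to 73.0% in Cy3. The number of arrays limits the precision. All 5 epithelial markers and all 4 markers of A549 cells were well above background on all 15 arrays in both channels, as were 2 of 5 leukocyte markers (CD3E and CD14), 1 of 3 fibroblast markers (COL1A1) and 0 of 3 endothelial markers. PTPRC, the pan-leukocyte marker, was not well above background on any array. The first miR-565 array stood apart, with a median correlation of 0.114 with the log2 ratios of the other arrays against at least 0.215 for every other array, so values are also given without it where it decides a result. Without that array more ratios were called in the lists read below, 40 of glutathione and 44 of eicosanoid genes. The share of all probes called in that fit is not given, so a pass there cannot be read as particular to a gene.

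MAPEG proteins are small enzymes or carriers that span membranes of the endoplasmic reticulum, the nuclear envelope or mitochondria. MGST1, MGST2 and MGST3 use glutathione to conjugate reactive compounds or to reduce lipid hydroperoxides. PTGES makes prostaglandin E2 from the product of the cyclooxygenases. ALOX5AP presents arachidonic acid to 5-lipoxygenase, and LTC4S joins glutathione to leukotriene A4. A miRNA pairs with its target mRNAs mainly through its seed, bases 2 to 8.

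Mature sequences were taken from RefSeq (GRCh38.p14), in which miR-629* is miR-629-3p. None is printed for miR-565. That of miR-629-3p and that of miR-574-3p are shown because the MGST3 and MGST1 results below belong to them. The seeds, in capitals, differ.
hsa-miR-629-3p: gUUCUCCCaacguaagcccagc
hsa-miR-574-3p: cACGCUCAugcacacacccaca
The former lies at chr15:70079387-70079408 on the minus strand and the latter at chr4:38868092-38868113 on the plus strand. The letters GGGAGAA, which pair with the seed of miR-629-3p, occur in 268 of 41000 probe sequences (0.654%, probe strand) and in 0 of the 7 MAPEG probes on either strand. The letters TGAGCGT, which pair with the seed of miR-574-3p, occur in 54 probes (0.132%) and likewise in 0 of the 7. The probes cover 60 bases of each transcript, and the rest of the transcripts was not searched here.

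The probe behind the MGST3 values is shown because all results on this gene rest on it. That of MGST1 follows, the other member with called ratios in its brightest probe. Positions are those of the array files (NCBI36).
MGST3 probe: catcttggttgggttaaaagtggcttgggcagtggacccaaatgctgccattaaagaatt
MGST1 probe: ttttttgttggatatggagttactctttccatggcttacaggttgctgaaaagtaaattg
The MGST3 probe lies at chr1:163891312-163891371 and the MGST1 probe at chr12:16408174-16408233, both on the plus strand. The MGST2 probe lies at chr4:140844706-140844765, that of PTGES at chr9:131541331-131541390 on the minus strand, and those of ALOX5AP at chr13:30236422-30236481 and chr13:30236155-30236214. The LTC4S probe spans 290 bases of genome, chr5:179155589-179155878, and thus crosses a splice junction.

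MGST3 was lower in cells overexpressing miR-629* than in the antagomir cells on each of the 3 arrays. The processed signals were 17900, 16860 and 14000 in the overexpressing cells and 35130, 35940 and 29710 in the antagomir cells, in replicate order. The log2 ratios were -0.97, -1.09 and -1.09, with a mean of -1.05 ± 0.067 (SD, n = 3), that is, a 2.07-fold lower signal. The mean ratio of 0.483 was the single one under 0.5, the limit that the methods set for suppressed mRNAs, among the 30 mean ratios of the 6 genes with the 5 miRNAs (brightest probe). On the other 12 arrays the log2 ratio of MGST3 ranged from -0.47 to -0.013, with a median of -0.082. The miR-629* arrays did not overlap with any other, and MGST3 was negative on all 15 arrays. The log2 ratio with miR-629* differed by -0.94 from that with miR-181d. The difference was -0.63 from miR-565, -1.01 from miR-574-3p and -0.999 from miR-766. Within slide 3, the single miR-574-3p array gave a difference of -0.97. No test is given for these values, since they are what the family was chosen on.

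**Figure D1:**
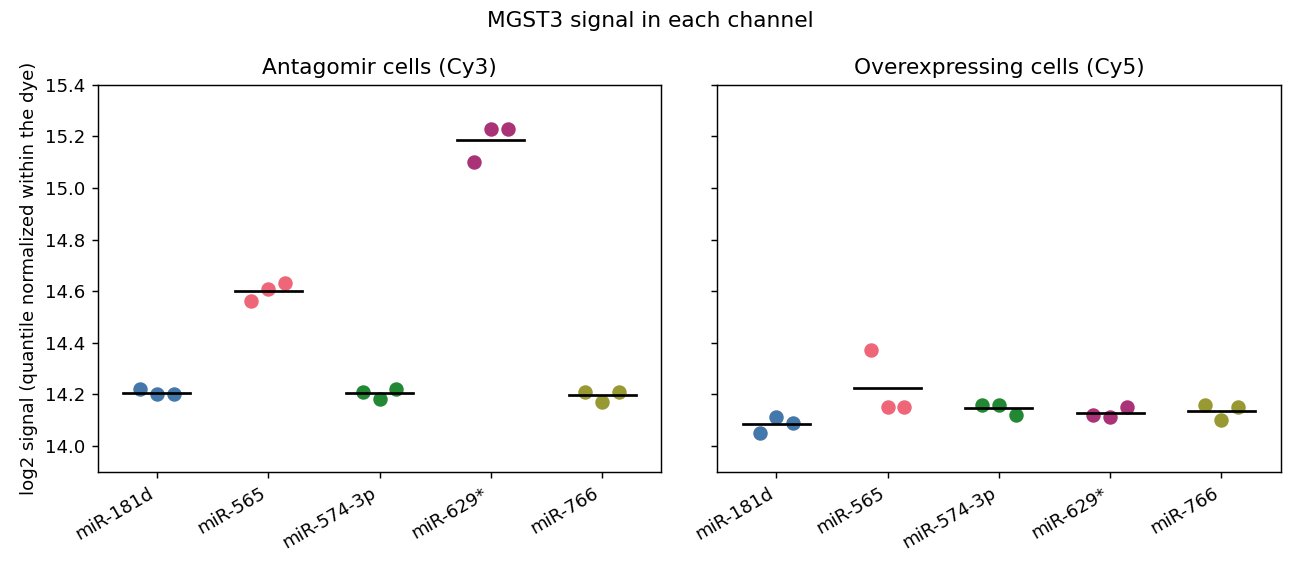
MGST3 log2 signal (quantile normalized within each dye) on the 15 arrays, in antagomir cells (Cy3, left) and overexpressing cells (Cy5, right), with 1 point per array and bars at the means of 3 arrays. In Cy3 the miR-629* arrays lie at 15.1 to 15.23 and the miR-565 arrays at 14.56 to 14.63, above the other 9 arrays at 14.17 to 14.22, while in Cy5 the arrays of all miRNAs lie between 14.05 and 14.37.

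The ratio was also read in each channel on its own. Signals were quantile normalized within each dye, and a shift is the mean of a miRNA less the mean of the other 4 in that dye. MGST3 was shifted by 0.89 on the log2 scale in the miR-629* antagomir cells and by -0.020 in the cells overexpressing miR-629*. The order of the MGST3 levels in the antagomir channel was miR-629* (mean log2 level 15.19), miR-565 (14.60), miR-181d (14.21), miR-574-3p (14.20) and miR-766 (14.20). The first 3 differed from each other by more than the spread of their arrays, whereas the last 3 overlapped. In the overexpressing channel the means ran from 14.08 with miR-181d to 14.22 with miR-565, where the first miR-565 array was at 14.37 and its other arrays were at 14.15. The signals before normalization between arrays were less separate, as the first miR-565 array had a Cy3 signal of 34930, within the range of the miR-629* arrays. Without normalization between arrays the shift with miR-629* was 0.69 in Cy3 and -0.21 in Cy5. No arrays of cells without oligonucleotide were analyzed here, so each channel is known only against the other transfected cells.

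MGST3 was also lower in cells overexpressing miR-565 than in their antagomir cells, at a level between miR-629* and the other miRNAs. Its signals were 27950, 18110 and 17540 in the overexpressing cells and 34930, 24900 and 24230 in the antagomir cells. The log2 ratios of -0.32, -0.46 and -0.47 were all below those of the 9 arrays of miR-181d, miR-574-3p and miR-766, which ranged from -0.16 to -0.013. The mean was -0.42 (standard error 0.040, limma adjusted p = 0.00014), a 1.33-fold lower signal, in a comparison where 13.3% of all tested probes were called. The mean ratio with miR-565 differed by -0.35 (standard error 0.046) from the mean of those 3 miRNAs, with a limma adjusted p = 0.0054, a difference for which 0.115% of probes were called. This comparison was chosen after the data were seen, because the planned differences of MGST3 all use the miR-629* arrays. It was -0.21 within slide 1 against miR-181d, where the first miR-565 array stood alone, and -0.44 within slide 2 against miR-574-3p, with 2 arrays each. In the channels, the miR-565 antagomir cells were higher by 0.40 (standard error 0.034, limma adjusted p = 7.88e-06; 3.47% of probes called) than the mean of the same 3 miRNAs in Cy3. The shift was 0.10 in Cy5 (standard error 0.048, limma adjusted p = 0.228; 0% of probes called). The difference of ratios no longer passed without the second (adjusted p = 0.0526) or the third miR-565 array (adjusted p = 0.0562), or without the intensity trend in limma (adjusted p = 0.0582). The ratio itself lost its call in a fit of the 3 miR-565 arrays alone (adjusted p = 0.639).

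With the remaining miRNAs no MGST3 ratio was called. The log2 ratios were -0.16, -0.080 and -0.095 with miR-181d (mean -0.11, limma adjusted p = 0.115, 6.26% of probes called). They were -0.031, -0.013 and -0.083 with miR-574-3p (mean -0.042, limma adjusted p = 0.644, 5.32% of probes called) and -0.033, -0.061 and -0.060 with miR-766 (mean -0.051, limma adjusted p = 0.578, 2.18% of probes called). Without the first miR-565 array the miR-181d ratio passed, at an adjusted p of 0.0125.

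**Figure D2:**
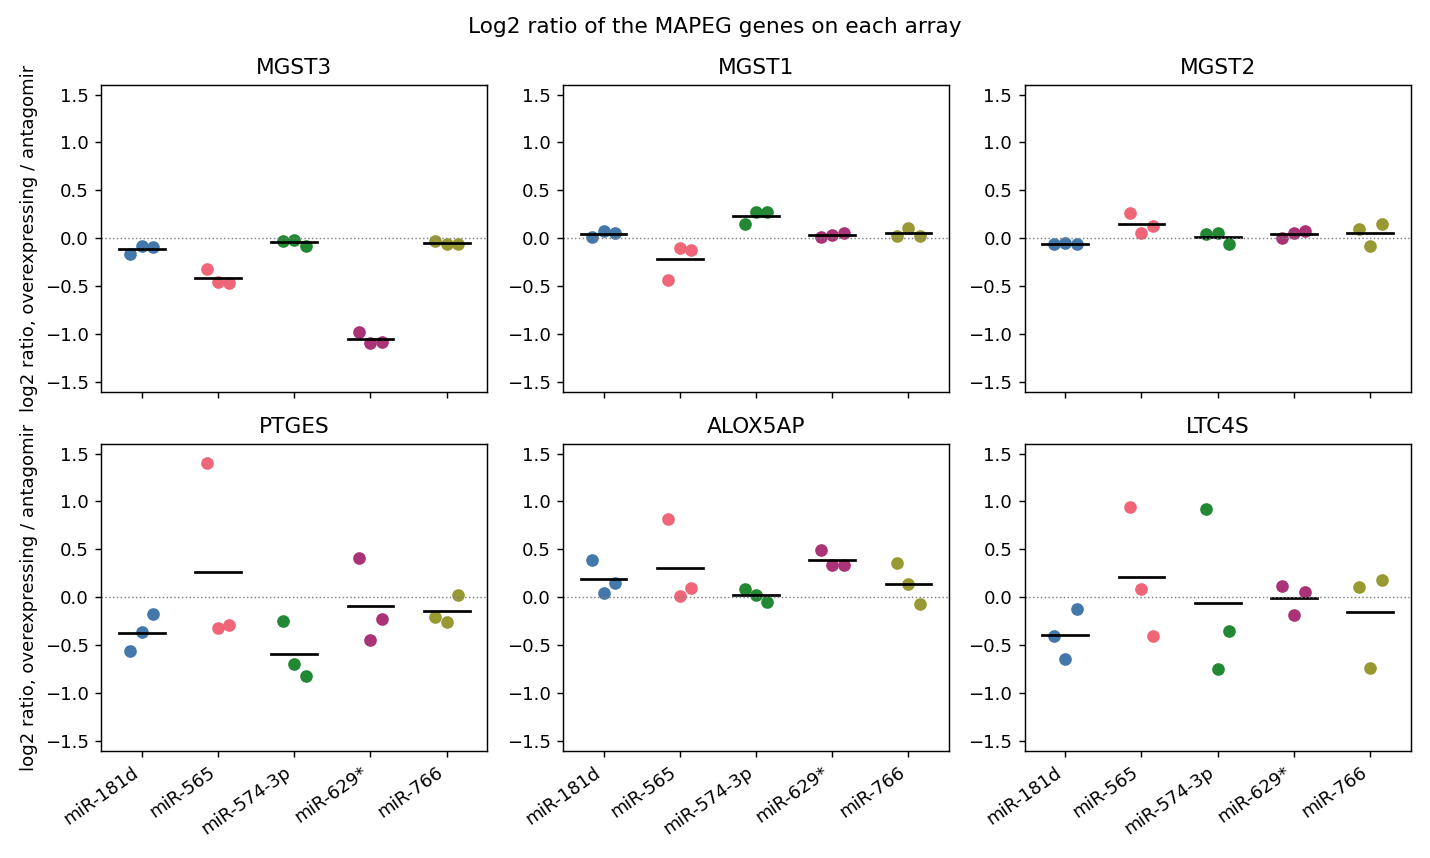
Log2 ratio of overexpressing to antagomir signal of the 6 MAPEG genes (brightest probe) on each of the 15 arrays, by miRNA, with bars at the means of 3 arrays. MGST3 lies lowest with miR-629* and next with miR-565, MGST1 lies below 0 on all 3 miR-565 arrays and above 0 on all 3 miR-574-3p arrays, and the first miR-565 array lies apart for PTGES at 1.40.

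Across the family, 8 of the 29 tested ratios (brightest probe) had an unadjusted p under 0.05 in limma. At an adjusted p under 0.05, 3 of 29 were called, namely MGST3 with miR-565 and MGST1 with miR-565 and miR-574-3p. By miRNA these were 2 of 6 with miR-565 and 1 of 6 with miR-574-3p, beside 13.3% and 5.32% of all tested probes, and 0 of 6 with miR-181d and miR-766. With miR-629* 0 of 5 were called, beside 10.5% of all tested probes. None of these 5 was called as lower, and their mean log2 ratios ranged from -0.089 for PTGES to 0.39 for ALOX5AP. The median log2 ratio of the 6 genes was 0.016 with miR-629*, beside 0.028 over all tested probes. It was -0.084 with miR-181d, 0.18 with miR-565, -0.014 with miR-574-3p and 0.00038 with miR-766, beside 0.012, 0.030, 0.0066 and 0.012 over all tested probes.

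MGST1, a detoxifying transferase of the endoplasmic reticulum and outer mitochondrial membrane, moved in opposite directions with miR-574-3p and miR-565. With miR-574-3p its signals were 27760, 32460 and 30910 in the overexpressing cells and 24960, 26910 and 25620 in the antagomir cells. The log2 ratios of 0.15, 0.27 and 0.27 (mean 0.23, standard error 0.055, limma adjusted p = 0.0275) all lay above those of the other 12 arrays. With miR-565 the signals were 35680, 29130 and 29030 against 48190, 31130 and 31520. The log2 ratios were -0.43, -0.096 and -0.12 (mean -0.22, standard error 0.055, limma adjusted p = 0.0263), and these arrays were the 3 negative ones of the 15. With miR-181d, miR-629* and miR-766 the means were between 0.033 and 0.052. The call with miR-565 was lost without the first array of that miRNA, with a mean of -0.11 and an adjusted p of 0.0624. The call with miR-574-3p was lost without any one of its 3 arrays, with an adjusted p of 0.0863 to 0.226, and both were lost with the slide as a random block (adjusted p = 0.257 and 0.511) and with an error-weighted mean (adjusted p = 0.191 and 0.257). Median centering (adjusted p = 0.0518) and a fit of 3 arrays (adjusted p = 0.639) also ended the call with miR-565, and a fit without the intensity trend (adjusted p = 0.0655) that with miR-574-3p.

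As with MGST3, the MGST1 ratios came with shifts in the antagomir channel. Its Cy3 level was shifted by -0.21 with miR-574-3p (standard error 0.042, limma adjusted p = 0.00341), while 8.98% of probes were called in that comparison. It was shifted by 0.22 with miR-565 (standard error 0.042, limma adjusted p = 0.0105), while 2.89% of probes were called. The Cy5 shifts were 0.013 and -0.026, with adjusted p values of 0.987 and 0.655. The Cy3 levels of the 3 miR-574-3p arrays, 14.73, 14.63 and 14.59, overlapped with those of miR-181d, which started at 14.70. Those with miR-565, 15.03, 14.94 and 15.02, did not overlap with the other miRNAs. The Cy3 call with miR-565 was lost without the first (adjusted p = 0.0764) or the third array of that miRNA (adjusted p = 0.091), and both Cy3 calls were lost without normalization between arrays.

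**Figure D3:**
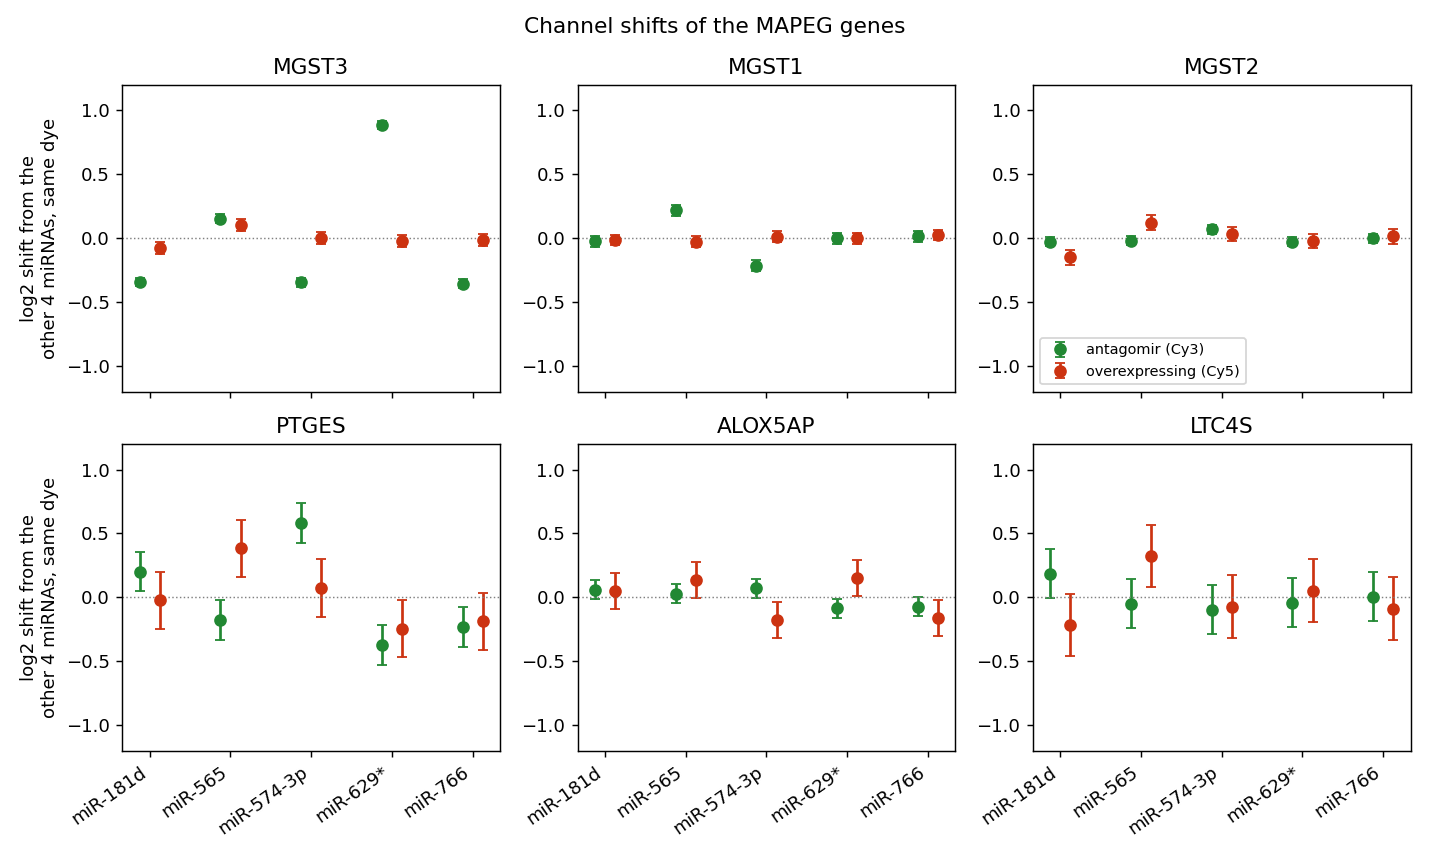
Log2 shift of each MAPEG gene (brightest probe) with a miRNA from the mean of the other 4 miRNAs in the same dye, for antagomir cells (Cy3, green) and overexpressing cells (Cy5, red), with bars of 1 standard error from limma. The Cy3 shift of MGST3 with miR-629* is 0.89 with a Cy5 shift of -0.020, and the Cy3 shifts of MGST3 with miR-181d, miR-574-3p and miR-766 are below 0, with the higher miR-629* and miR-565 arrays in their reference.

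MGST2, a transferase that can also make leukotriene C4, had no called ratio. Its mean log2 ratios ran from -0.057 with miR-181d to 0.15 with miR-565 (limma adjusted p = 0.0715), where the 3 arrays gave 0.27, 0.056 and 0.13. Without the second miR-565 array the latter passed, with a mean of 0.20 and an adjusted p of 0.04. The higher of the arrays left, at 0.27, is the first, which stood apart. Its signals were 2165 to 4466 in Cy5 and 2048 to 3706 in Cy3 over the 15 arrays. With miR-629* its log2 ratios were 0.0042, 0.058 and 0.080 (mean 0.047, limma adjusted p = 0.611, 95% confidence interval -0.068 to 0.16).

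PTGES was dim, with signals of 26.9 to 94.2 in Cy5 and 29.8 to 75.7 in Cy3, although it was well above background in both channels on all 15 arrays. Its log2 ratios with miR-574-3p were -0.24, -0.69 and -0.82 (mean -0.59, standard error 0.27, limma adjusted p = 0.253). This ratio passed without the first miR-565 array (adjusted p = 0.0134), in a fit of its 3 arrays (adjusted p = 0.0235) and with an error-weighted mean (adjusted p = 0.000271), at means of -0.59 to -0.58. Its Cy3 level with miR-574-3p was shifted by 0.58 (standard error 0.15, limma adjusted p = 0.025), and the Cy5 shift was 0.074 (adjusted p = 0.987). This Cy3 call was lost without the second (adjusted p = 0.095) or the third miR-574-3p array (adjusted p = 0.177). With miR-565 the first array gave a log2 ratio of 1.40 and the others -0.32 and -0.29, so that their mean of 0.27 rests on the array that stood apart. With miR-629* the log2 ratios of 0.41, -0.45 and -0.23 had both signs.

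ALOX5AP was higher in the overexpressing cells on all 3 miR-629* arrays, without passing the test in its brightest probe. The signals of that probe were 148, 141 and 112 in Cy5 and 105, 111 and 88.6 in Cy3. The log2 ratios were 0.50, 0.34 and 0.34 (mean 0.39, standard error 0.13, limma adjusted p = 0.0748). The dimmer probe gave 0.76, 0.84 and 0.37 (mean 0.66, standard error 0.19, limma adjusted p = 0.0464), in the same direction, from signals of 14.8 to 32.6. The brightest probe passed without the first miR-565 array (adjusted p = 0.00291). It also passed with normexp and loess, where its mean was 0.24 (adjusted p = 0.043), with median centering (adjusted p = 0.0381) and with a replicate block (adjusted p = 0.0341). An error-weighted mean (adjusted p = 0.0107) and a fit of its 3 arrays (adjusted p = 0.0215) called it as well. The arrays with miR-629* overlapped with those of miR-181d and miR-766, the ranges of which reached 0.39 and 0.35, and with the first miR-565 array at 0.82. With miR-565 the brightest probe passed without the second array of that miRNA (mean 0.46, adjusted p = 0.0445). That mean rests on the first miR-565 array at 0.82, which stood apart, beside 0.093 on the third. Set against the other 4 miRNAs, the brightest probe with miR-629* had a log2 difference of 0.23 (standard error 0.15, limma adjusted p = 0.981). Both probes had positive mean log2 ratios with every miRNA, in the brightest from 0.019 with miR-574-3p to 0.39 with miR-629*. No difference between miRNAs was called, so a dye effect cannot be told apart for ALOX5AP.

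LTC4S was the dimmest to read, with signals of 8.59 to 25 in Cy5 and 8.17 to 22.4 in Cy3. It was well above background on all 15 arrays in Cy5 and on 13 in Cy3, the exceptions being the third miR-565 and the first miR-574-3p array. Its mean log2 ratios ran from -0.39 with miR-181d to 0.21 with miR-565, with a standard error of 0.30, so that a change of the size of that of MGST1 was not detectable for this gene.

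When each miRNA was set against the mean of the other 4, 0 of 25 ratios of the 5 members other than MGST3 were called in limma, and 3 had an unadjusted p under 0.05. These were MGST1 with miR-565 (difference -0.31, standard error 0.061, adjusted p = 0.14) and with miR-574-3p (0.25, standard error 0.061, adjusted p = 0.0772), and MGST2 with miR-565 (0.14, standard error 0.060, adjusted p = 0.293). The difference of MGST1 with miR-574-3p passed without the first (0.22, adjusted p = 0.00122) or the second miR-565 array (0.27, adjusted p = 0.0487). An error-weighted mean called 2, both of PTGES, with miR-565 (0.47, adjusted p = 0.0394) and with miR-574-3p (-0.47, adjusted p = 0.0179). With miR-565, PTGES was positive only on the first array, which stood apart (log2 ratio 1.40, beside -0.32 and -0.29). That array is also in the reference for miR-574-3p. Over all tested probes the share called was 0% for miR-181d, 0.105% for miR-565, 1.18% for miR-574-3p, 0.051% for miR-629* and 0.00638% for miR-766. Within slide 2, MGST1 with miR-565 was lower than with miR-574-3p by a log2 difference of -0.32. Within slide 3, it was lower with miR-629* than on the single miR-574-3p array by a log2 difference of -0.24.

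Of the 25 Cy3 shifts of these 5 members, 3 were called in limma (MGST1 with miR-565 and miR-574-3p, and PTGES with miR-574-3p) and 4 had an unadjusted p under 0.05. Of the 25 Cy5 shifts 0 were called and 2 had an unadjusted p under 0.05, both of MGST2. Over all tested probes, 2.16% of Cy3 shifts were called with miR-181d, 0.902% with miR-629* and 4.41% with miR-766. In Cy5 the share called was 0% with miR-181d, miR-565, miR-574-3p and miR-629*, and 0.234% with miR-766. A difference between the channels was not tested.

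The genes whose log2 ratio over the 15 arrays was most like that of MGST3 were named by Pearson's r among 19400 genes, as a description. They were GABARAPL2 (r = 0.947), an autophagy protein of the ATG8 family, TMSB10 (0.909), which binds actin monomers, the transcript ENST00000373268 (0.894), HSBP1 (0.876), which binds heat shock factor, and the transcript AK095738 (0.862). Picking genes by likeness to MGST3 favors those that are low with miR-629*, so their low values there are no separate result. All 5 had their lowest mean log2 ratio of the groups compared with miR-629*, from -1.81 for TMSB10 to -0.22 for AK095738. Unlike MGST3, TMSB10 had about the same mean log2 ratio with miR-565 (-0.11) as over the other 3 miRNAs (-0.11). By Cy3 signal the most alike were COPZ1 (r = 0.950), a coat protein of Golgi vesicles, GABARAPL2 (0.939), BC007606 (0.927), MED8 (0.924), a subunit of the Mediator complex, and the unnamed probe A_32_P10665 (0.909). The latter had equal mean log2 ratios of -0.74 with miR-629* and miR-565. The arrays share slides, and the 3 miR-629* arrays hold the lowest ratios of MGST3. The other MAPEG genes had r of 0.24 (MGST1), -0.12 (LTC4S), -0.18 (PTGES and MGST2) and -0.42 (ALOX5AP) with MGST3.

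The neighboring pathways were read from 4 lists, whose 74 genes were all on the array. Of 19 genes of glutathione synthesis, recycling and peroxidases, 18 were tested with each miRNA, and 4 of 90 ratios (4.44%) were called, 2 higher and 2 lower. The share called over all tested probes was 2.18% to 13.3% by miRNA, and the list's share lay within that range. GGT1, which cleaves extracellular glutathione, was lower with miR-181d (log2 ratios -0.48, -0.46 and -0.41, mean -0.45, limma adjusted p = 0.0231). It was also lower with miR-629* (mean -0.37, limma adjusted p = 0.0381), where its 3 probes gave means of -0.37, -0.35 and -0.30, and near-identical copies of this gene may share these probes. GLRX2, a mitochondrial glutaredoxin, was higher with miR-565 (0.20, limma adjusted p = 0.0327) and with miR-629* (0.20, limma adjusted p = 0.0352). GGT1 was negative and GLRX2 positive with every miRNA, and no difference between miRNAs was called. A dye effect cannot be told apart for these genes. The brightest probes of GCLC and GCLM, the subunits of the rate-limiting enzyme of glutathione synthesis, were not called with any miRNA. They had mean log2 ratios of 0.11 and 0.11 with miR-629*. The dimmer GCLC probe passed with miR-181d (mean 0.26, limma adjusted p = 0.00803), where the brightest one did not (mean 0.18, limma adjusted p = 0.178).

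Of 17 soluble glutathione transferases, 15 were tested, and 4 of 75 ratios (5.33%) were called, all higher in the overexpressing cells, which is within the same background of 2.18% to 13.3%. Over both glutathione lists the count of 8 was 4 without the second miR-181d array and 40 without the first miR-565 array. The share of all probes called in those fits is not given here, so these counts are no result about the lists. GSTP1, the pi class enzyme, had log2 ratios of 0.24, 0.20 and 0.14 with miR-181d (mean 0.19, limma adjusted p = 0.00903). Its means were 0.19 with miR-565 (limma adjusted p = 0.00755) and 0.13 with miR-574-3p (limma adjusted p = 0.0421). With miR-629* and miR-766 its means were 0.096 and 0.072, and no difference between miRNAs was called, so a dye effect cannot be told apart for this gene. GSTA1, from signals near 26.7 and 17.5, was higher with miR-565 (mean 0.60, limma adjusted p = 0.0198), and other alpha class genes are close in sequence. Its means were positive with every miRNA without a called difference, so a dye effect cannot be told apart here either. None of the 15 was called with miR-629*, and the median log2 ratio of the list there was 0.041, beside 0.028 over all tested probes.

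Of 23 genes of prostaglandin synthesis, breakdown and receptors, 18 were tested, and 15 of 90 ratios were called, 10 higher and 5 lower. By miRNA this was 22.2% with miR-181d and miR-565, 16.7% with miR-574-3p and miR-629*, and 5.56% with miR-766, beside 6.26%, 13.3%, 5.32%, 10.5% and 2.18% of all tested probes in the same order. PTGER4, a receptor of prostaglandin E2, accounted for 5 of these, with mean log2 ratios of 0.37 with miR-181d, 0.47 with miR-565, 0.30 with miR-574-3p, 0.37 with miR-629* and 0.35 with miR-766. Its differences between miRNAs lay between -0.086 and 0.12 and none was called, so the higher PTGER4 signal in Cy5 was shared by all 5 miRNAs and cannot be told apart from a dye effect. PTGES2, another prostaglandin E synthase, was lower with miR-181d (mean -0.54, limma adjusted p = 0.0108) and miR-629* (mean -0.41, limma adjusted p = 0.0262), with mean log2 ratios of -0.37 to -0.25 with the others. It was thus negative with all 5 and had no called difference between miRNAs. PTGES3, the cytosolic synthase and HSP90 cochaperone, was lower with miR-565 (mean -0.39, limma adjusted p = 0.00499) and miR-574-3p (mean -0.28, limma adjusted p = 0.0263), but its 4 probes disagreed, with means from -0.39 to 0.040 with miR-565. A dimmer probe among these, with a mean of -0.20 with miR-565, is placed on chromosome 4 and the others on chromosome 12. CBR1, a carbonyl reductase, was higher with miR-181d (0.24, limma adjusted p = 0.0248), miR-565 (0.31, limma adjusted p = 0.0061) and miR-629* (0.28, limma adjusted p = 0.00995). Its means with miR-574-3p and miR-766 were 0.16 and 0.19, with no called difference, and for CBR1 and PTGES2 as for PTGER4 a dye effect cannot be told apart. The thromboxane receptor TBXA2R was higher with miR-565 (1.17, 0.42 and 0.49 on the 3 arrays, limma adjusted p = 0.00879), and its dimmer probe had a mean of 0.42. PTGR1, which inactivates eicosanoids, was lower with miR-574-3p (mean -0.22, limma adjusted p = 0.0342). In the brightest probe, PTGES3, TBXA2R and PTGR1 each kept the same sign with every miRNA, without a called difference. Their ratios alone cannot be told apart from a dye effect. In Cy3, PTGR1 was shifted by 0.15 with miR-574-3p (limma adjusted p = 0.00904), where 8.98% of probes were called.

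Against the other 4 miRNAs, 1 of 90 differences in this list was called. It was that of TBXAS1, thromboxane synthase, with miR-574-3p (-0.33, standard error 0.059, limma adjusted p = 0.0148), a gene named after its values were seen. The other 3 lists had 0 called differences in limma, with 6, 2 and 2 at an unadjusted p under 0.05. PTGS2, the inducible cyclooxygenase that supplies PTGES, was not called in its brightest probe, with mean log2 ratios of 0.066 to 0.19. Its dimmer probe passed with miR-565 (mean 0.45, limma adjusted p = 0.0163) and miR-629* (mean 0.37, limma adjusted p = 0.0317). With the other miRNAs that probe had means of 0.056 to 0.25 and did not pass. PLA2G4A, which releases arachidonic acid, and HPGD, which degrades prostaglandins, were not called in any probe. PLA2G4A had a log2 ratio of -2.05 on the first miR-565 array beside 0.15 and 0.20 on the others.

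Of 15 genes of leukotriene synthesis, breakdown and receptors, 12 were tested, and 4 of 60 ratios (6.67%) were called, 2 higher and 2 lower. Of these, 3 were with miR-565, where 13.3% of all tested probes were called. LTB4R, a leukotriene B4 receptor, was lower with miR-629* (log2 ratios -0.50, -0.60 and -0.76, mean -0.62, limma adjusted p = 0.0289) and miR-565 (mean -0.54, limma adjusted p = 0.0426). Its means with miR-181d, miR-574-3p and miR-766 were -0.34, -0.038 and -0.11, and no difference between miRNAs was called. A dye effect therefore cannot be told apart for LTB4R. The overlapping gene LTB4R2 was higher with miR-565 (mean 0.36, limma adjusted p = 0.0471), although its dimmer probe gave -0.068. CYSLTR1, the fourth, had log2 ratios of 1.31, -0.14 and 1.39 with miR-565, from mean signals of 8.74 and 4.78, and is named after its values were seen. ALOX5, the enzyme that ALOX5AP serves, was near background with mean signals of 4.92 to 9.67, and LTA4H, which makes leukotriene B4, had mean log2 ratios of -0.099 to 0.019, and neither was called. With the slide as a random block, the number of called ratios was 2 over both glutathione lists, against 8 without it, and 1 over both eicosanoid lists, against 19. The latter count was 10 without the third miR-629* array and 44 without the first miR-565 array. As no share over all probes is given for these fits, the counts are no result about the lists.

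**Figure D4:**
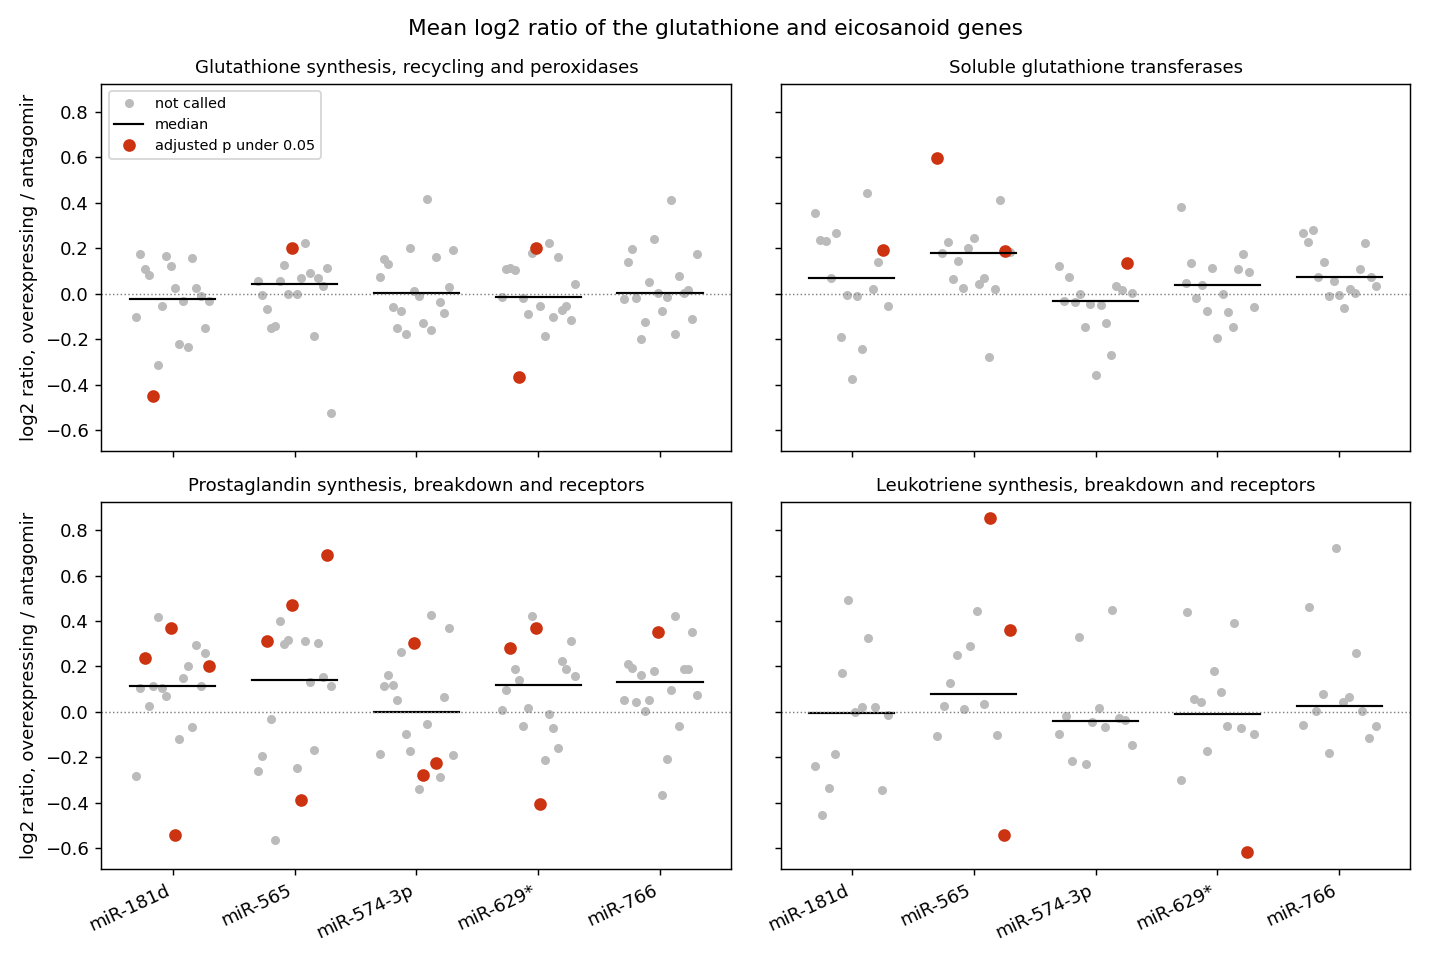
Mean log2 ratio over 3 arrays of each tested gene (brightest probe) of the 4 lists, by miRNA, with genes at an adjusted p under 0.05 in limma in red, other genes in gray and bars at the list medians. The prostaglandin list holds 15 of the 27 called ratios, 5 of which are PTGER4.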

How the data were processed

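Arrays were assigned to miRNAs by their labels. The deposited intensity values are processed signals of Feature Extraction 9.5.3.1, which the authors' software corrected for background and normalized between dyes. The authors' files also hold a log10 ratio, its error as a score, and a p-value per spot; the deposited series table equals that log10 ratio (largest difference 0). The Rosetta Resolver step named in the methods was not used here.

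Log2 ratios (Cy5 over Cy3) were taken from the processed signals with R 4.3.3. The 1639 control spots per array and 2296 outlier-flagged spots were left out, no spot was saturated, and 264 probes with 10 spots were averaged. In limma 3.58.1, lmFit and eBayes (trend on mean log2 intensity) were run on 15 arrays with 1 coefficient per miRNA. Benjamini-Hochberg adjustment covered 31356 probes that were well above background (Cy5 or Cy3) on at least 3 arrays, less the few that could not be fitted for a miRNA. The brightest probe stood for a gene. Channels were quantile normalized within the dye. The script was tested on simulated data.

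Members and lists were chosen with earlier results of these data known. Named were all members, 10 pathway anchors, up to 2 called genes per list, miRNA and direction with 1 sign on all 3 arrays, and the 5 genes most like MGST3 by ratio and by Cy3 signal. Gene names follow the array, and the 6 members matched RefSeq (GRCh38.p14). Alternatives were normexp (offset 50) with loess, the series table, median centering, fits of 3 arrays, an error-weighted mean, no trend, replicate and slide blocks, other filters and channel scalings, averaged probes per gene, outlier spots kept, and each array left out.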

Additional observations from a re-analysis of the deposited data

Results flagged for a closer look

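The MGST3 ratio with miR-565 differed from that with miR-181d, miR-574-3p and miR-766 by a log2 value of -0.35 (limma adjusted p = 0.0054), a test of the difference itself that was chosen after seeing the data. The ratio was lower on 3 of 3 miR-565 arrays than on all 9 arrays of those miRNAs. Over 24 alternatives the difference lay between -0.40 and -0.32, with limma adjusted p values from 0.00048 to 0.0582, and 21 of them kept it under 0.05. It did not pass without the second (adjusted p = 0.0526) or the third miR-565 array (adjusted p = 0.0562), or without the intensity trend. The alternatives reuse the same arrays, so their number is no measure of support.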

How the results depend on the processing

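The log2 ratio of MGST3 with miR-629* was -1.09 to -1.03 when single arrays were left out. Its Cy3 shift was 0.86 to 0.93 and its Cy5 shift -0.032 to -0.0011 in the same way. Without normalization between arrays these shifts were 0.69 and -0.21, and with the slide as a random block the Cy5 shift was 0.055. The 3 called MAPEG ratios became 1 with the slide block and 2 to 5 without single arrays, with 2 without the first miR-574-3p array and 5 without the first miR-565 array. The differences between miRNAs, 0 in limma, became 2 with an error-weighted mean, 3 with the slide block and 0 to 1 without single arrays. The 3 called channel shifts became 1 without normalization, 5 with the slide block and 2 to 3 without single arrays. The 8 called glutathione ratios became 20 in fits of 3 arrays, 2 with the slide block, and from 4 (without the second miR-181d array) to 40 (without the first miR-565 array). The 19 called eicosanoid ratios became 1 with the slide block, 10 with averaged probes per gene, and from 10 (without the third miR-629* array) to 44 (without the first miR-565 array). These counts are given without the share of all probes called in the same fits, and are no result about the lists. The cause was not tested. No called value changed sign under the alternatives run. Replicate numbers did not visibly pair the arrays. The 30 same-number correlations ranged from -0.51 to 0.57, with 16 over 0.1, and the 60 correlations between other numbers ranged from -0.61 to 0.52. The replicate block gave 4 called MAPEG ratios, 0 differences and 3 channel shifts. A slide as a fixed block could not be fitted for the ratios.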
